A study of Homo sapiens with 6 samples.

Results

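The lysosome is the acidic compartment in which cells break down proteins, lipids and sugars, and autophagy is the route by which a double membrane encloses cytoplasm and carries it there. A set of 34 human genes of this system was followed here: 12 lysosomal hydrolases and activator proteins, 5 genes of the lysosomal membrane and of cholesterol export, 6 subunits of the vacuolar proton pump, 2 transcription factors and 9 autophagy factors. The genes were chosen by symbol with earlier results of these data known, and 34 of 34 were found among the 17468 genes measured. Every one passed the filter on low values, a mean of at least 1 FPKM (a fragment count scaled to transcript length and library size) over the libraries, together with 11129 genes in all.

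RNA sequencing was done in Colo800 and A375, both human melanoma cell lines, with 1 library for each line and hairpin, 6 in all. Cells carried a virus with the short hairpin RNA ETV1-sh1 or ETV1-sh2, both directed against the ETS-family transcription factor ETV1, or with a scrambled hairpin, and RNA was taken 4 days after infection. There were 4 ETV1 hairpin libraries and 2 scrambled libraries. The design text speaks of duplicate infections, and the sources used here do not say if a column pools them. The treatment labels go against the design text: they give DMSO for ETV1-sh1, 5 nM trametinib (a MEK inhibitor) for ETV1-sh2 and 1 uM vemurafinib (as spelled there, a BRAF inhibitor) for the scrambled hairpin. A protocol label further speaks of 48 hours of siRNA followed by 8 hours of drug, whereas no drug stands in the design text. Each drug goes with 1 hairpin in these labels, so a drug and a hairpin cannot be told apart. Within a line and hairpin there was no replicate, and whether the libraries of a line came from separate cultures is not stated, so the p-values cover no more than the spread among the 6 libraries.

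As background, lysosomal hydrolases work at the low pH that the proton pump sets up, and their genes are often regulated together. TFEB, TFE3 and their relative MITF, the lineage factor of melanocytes, bind a motif known as CLEAR, an extended E-box, in many of these promoters. When nutrients are scarce the kinase ULK1 starts autophagy, ATG9A and ATG2A supply membrane lipid, and the small proteins GABARAP, GABARAPL1 and MAP1LC3B are attached to the growing membrane and bind cargo receptors such as SQSTM1 and CALCOCO1. Pigment cells also build melanosomes, which are lysosome-related organelles.

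The promoters of the members were read for these motifs. RefSeq windows (build GRCh38.p14) running from 250 bases before to 50 after a start were matched by symbol for 25 of the 34 genes, 31 windows in all. CTSB, HEXA, PSAP, SGSH, LAMP2, ATP6V1A, ATP6V1B2, ATP6V1H and CALCOCO1 had no window in the table. The E-box CACGTG, which reads the same on both strands, was in 7 of the 31 windows (22.6%), against 7.26% of the 35116 windows of all genes. The CLEAR motif, searched as the E-box with GT just before it and AC just after it, was in 2 windows (6.45%), those of GAA and MCOLN1, against 0.353% of all windows. By role, the E-box was found in 4 of 8 matched hydrolase genes, 2 of 4 membrane genes and 1 of 3 pump genes, and in 0 of 2 transcription factor and 0 of 8 autophagy genes. An ETS motif, CCGGAAGT, read on both strands, was in 0 of the 31 windows, against 4.14% of all windows. These letters are a description of the windows and not of binding. The roles were not tested against each other, and few genes were matched in each. The following sites, at least 1 for each of the 7 genes, show the letters behind these counts, 5′ to 3′ on the gene's strand, with the E-box or the CLEAR motif in capitals.
GAA, chr17:80101494-80101521, plus strand: ggaggccgcGTCACGTGACccaccgcgg
GAA, chr17:80101539-80101566, plus strand: ctcccgccgGTCACGTGACccgcctctg
MCOLN1, chr19:7522599-7522626, plus strand: ggctaccggGTCACGTGACcgaggcaca
CTSA, chr20:45891299-45891326, plus strand: gcgccggagttCACGTGactcgtacaca
CTSD, chr11:1763958-1763985, minus strand: ccggccgcgccCACGTGaccggtccggg
NEU1, chr6:31862931-31862958, minus strand: tgctgcgtgatCACGTGggaggagatga
LAMP1, chr13:113297200-113297227, plus strand: acccgcgggatCACGTGacgcccgggcg
ATP6V0D1, chr16:67481200-67481227, minus strand: ccccttatggtCACGTGaggcgcttgcg
The centres of the GAA sites lie 73 and 28 bases before the start, and that of the MCOLN1 site 11 bases before it.

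FPKM values summed to between 589256 and 710498 per library, and the 34 members made up 0.679% to 0.795% of the sum in Colo800 and 0.451% to 0.622% in A375. Absolute depth is not known from FPKM. The steps between low values put the depth of the libraries at 0.768 to 2.10 times that of the A375 scrambled library, the highest being A375 ETV1-sh2. ETV1 was at 54.6 and 9.798 FPKM with ETV1-sh1 and ETV1-sh2 in Colo800, against 180.3 with the scrambled hairpin, and at 34.6 and 3.46 against 82.8 in A375. It was lower in 4 of 4 hairpin libraries, as the labels say. Of the melanocyte lineage markers, SOX10 was at 549 to 712 FPKM in Colo800 and 353 to 556 in A375, while tyrosinase (TYR) was at 14.8 to 84.9 FPKM in Colo800 and at most 0.0758 in A375. MLANA was at most 1.85 FPKM in any library, and PMEL was not analysed here.

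**Figure D1:**
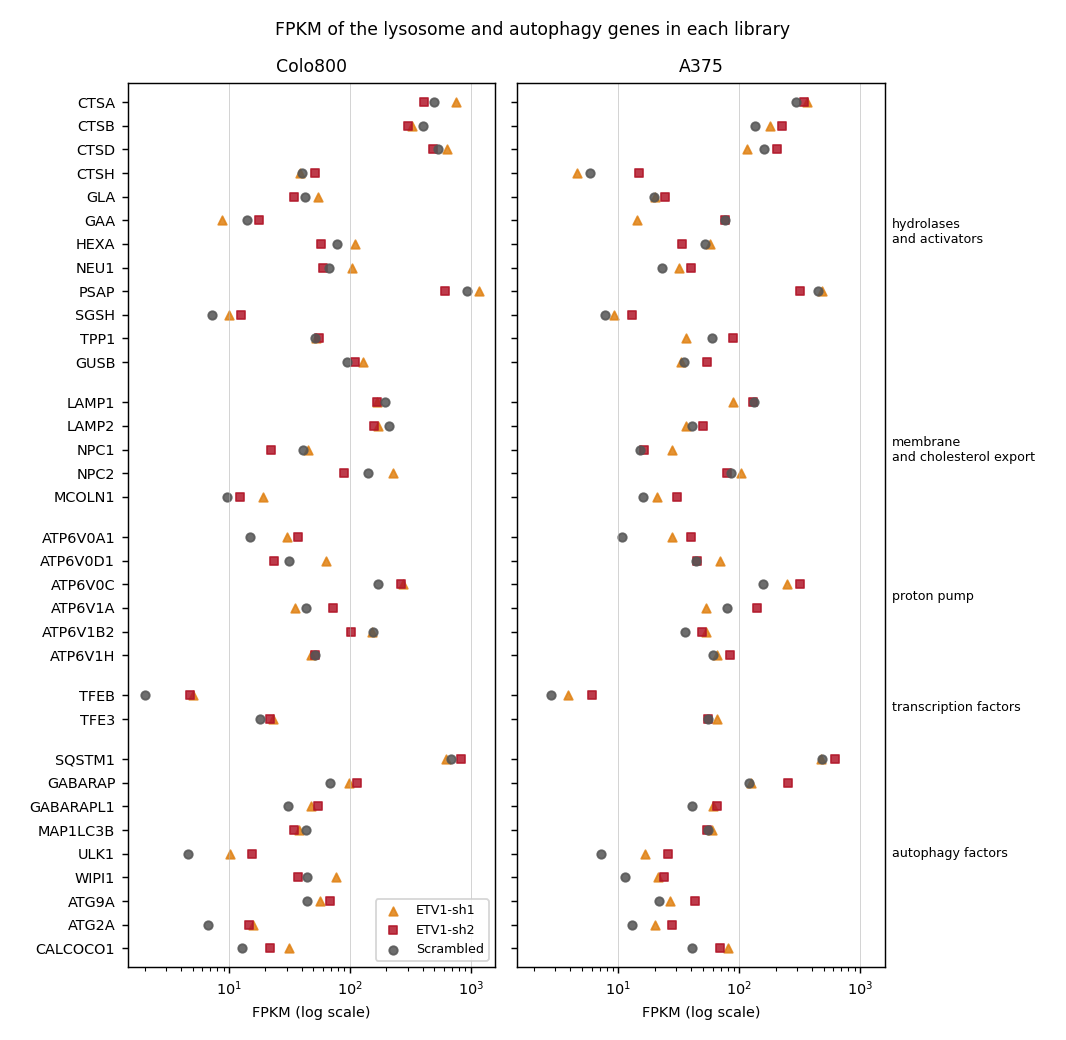
FPKM of the 34 members in each library on a log axis, Colo800 on the left and A375 on the right, 1 point per library, with triangles for ETV1-sh1, squares for ETV1-sh2 and circles for the scrambled hairpin. ULK1, ATG2A, CALCOCO1, ATP6V0A1 and TFEB lie to the right of their scrambled circle with both hairpins in both lines, while the hydrolases are mostly set apart by line, such as CTSH at 38.4 to 51.4 FPKM in Colo800 and 4.52 to 14.8 in A375.

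The first comparison asked what happened to these genes when ETV1 was targeted. Of the 9 autophagy factors 6 rose with ETV1-sh2, which left the least ETV1, and 2 with ETV1-sh1. Of the 6 pump subunits 3 and 1 did, while with both hairpins pooled 0 members passed. Genes of these classes outside the set moved less often. With ETV1-sh2 7 of 38 other autophagy genes rose and 2 fell, and 1 of 15 other pump subunits rose and 1 fell. With ETV1-sh1 0 of these other genes rose, while 1 of the 38 autophagy genes and 1 of the 15 pump subunits fell. With ETV1-sh2 10 of the 34 members rose (29.4%) and 0 fell in limma's moderated test, adjusted by Benjamini-Hochberg over all 11129 genes. Over all genes 7.73% rose and 9% fell. The members were chosen with earlier results of these data known, so their share beside that of all genes is a description and not a test. With ETV1-sh1 3 members rose (8.82%) and 0 fell, against 0.773% and 1.51% of all genes. At an unadjusted p under 0.05, 2 members were lower with each hairpin, HEXA and PSAP with ETV1-sh2 and GAA and ATP6V1A with ETV1-sh1. At that level 12 members were higher with ETV1-sh2 and 9 with ETV1-sh1. Over all 11129 genes 3965 were under it with ETV1-sh2 and 2095 with ETV1-sh1, in either direction. The 10 were ULK1, ATG2A, ATG9A, GABARAP, GABARAPL1 and CALCOCO1 among the 9 autophagy factors, ATP6V0A1, ATP6V0C and ATP6V1A among the 6 pump subunits, and the hydrolase SGSH. The 3 were ULK1, CALCOCO1 and ATP6V0A1. Both hairpins are set against the same scrambled libraries, so their results are not independent. In sequencing of whole cultures, more RNA per cell and more cells that hold the RNA cannot be told apart.

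The counts depended on single libraries, which were left out 1 at a time. With ETV1-sh2, 0 members rose without the A375 scrambled library, 2 without the Colo800 scrambled or the A375 ETV1-sh2 library, 4 without either ETV1-sh1 library and 12 without the Colo800 ETV1-sh2 library. With ETV1-sh1, 7 rose and 1 fell without either ETV1-sh2 library and 0 rose without any of the other 4, and with no filter on low values 0 members passed for either hairpin.

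When both hairpins were pooled against scrambled, with the cell line as a block, 0 members passed (0% of all genes higher and 0% lower in limma, smallest adjusted p among members 0.279). At an unadjusted p under 0.05 were 7 of the 34 members, all higher: ULK1, ATP6V0A1, ATG2A, CALCOCO1, ATP6V0C, GABARAPL1 and TFEB. Over all genes 1204 of 11129 were under it, in either direction. In that fit a gap between the hairpins counts as spread. In all 4 hairpin libraries 11 of the 34 members (32.4%) were above the scrambled library of their line, against 19.7% of all genes. They were ULK1, ATG2A, ATG9A, GABARAP, GABARAPL1, CALCOCO1, ATP6V0A1, ATP6V0C, MCOLN1, SGSH and TFEB. LAMP1 alone (2.94%) was below it in all 4, against 16.8% of all genes.

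Of the autophagy factors, ULK1, the kinase that starts autophagy, was at 10.3 FPKM for ETV1-sh1 and 15.4 for ETV1-sh2 in Colo800, against 4.603 with the scrambled hairpin. In A375 it was at 16.6 and 25.7 FPKM with the hairpins, against 7.23. The 4 hairpin libraries lay above both scrambled libraries, and its log2 change was 1.05 for ETV1-sh1 (SE 0.18, adjusted p = 0.0443) and 1.62 for ETV1-sh2 (SE 0.18, adjusted p = 0.00868). ULK1 was at least 2-fold higher with both hairpins in both lines, on the log2(FPKM + 1) scale.

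ATG2A, which moves lipid into the growing membrane, was at 15.9 and 14.7 FPKM with ETV1-sh1 and ETV1-sh2 in Colo800, against 6.68 with the scrambled hairpin. The A375 values were 20.01 and 27.9 FPKM with the hairpins, against 12.8. Its change with ETV1-sh2 was 1.04 (SE 0.21, adjusted p = 0.026); with ETV1-sh1 it was 0.87 and missed the threshold (adjusted p = 0.102). ATG9A, the membrane protein whose vesicles seed the autophagosome, was at 56.7 and 68.5 FPKM in Colo800 hairpin libraries against 44.1 in the scrambled one, and at 26.5 and 42.7 against 21.6 in A375. The ETV1-sh2 library was the highest of its line both times, and the log2 change was 0.79 (adjusted p = 0.0335).

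CALCOCO1, a receptor for autophagy of the endoplasmic reticulum, differed from ULK1 in its order. In Colo800 it was at 31.6 FPKM with ETV1-sh1 and 21.7 with ETV1-sh2, against 12.9 with the scrambled hairpin. In A375 the levels were 80.1 and 69.6 FPKM, against 40.6. In both lines ETV1-sh1 gave the higher value, and the log2 changes were 1.10 with ETV1-sh1 (SE 0.17, adjusted p = 0.0399) and 0.74 with ETV1-sh2 (SE 0.17, adjusted p = 0.0357).

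The ubiquitin-like proteins that are attached to the autophagosome membrane did not move as 1 group. GABARAPL1 was at 48.04 and 54.3 FPKM with ETV1-sh1 and ETV1-sh2 in Colo800 against 30.8 with the scrambled hairpin, and at 60.7 and 65.5 against 40.9 in A375. GABARAP was at 99.2 and 114 FPKM against 68.8 in Colo800, and at 124 and 252 against 120.5 in A375, where ETV1-sh1 was close to scrambled. Both rose with ETV1-sh2, by log2 values of 0.73 (adjusted p = 0.0293) and 0.89 (adjusted p = 0.0416). MAP1LC3B was at 38.1 and 34.7 FPKM against 43.2 in Colo800 and at 59.1 and 54.3 against 54.7 in A375. Its log2 change with ETV1-sh2 was -0.16 (SE 0.17, adjusted p = 0.525). Near-identical gene copies could share reads among these short genes, and how the authors' counting split them is unknown here.

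SQSTM1, the receptor that links ubiquitinated cargo to the autophagosome, was the most abundant autophagy factor. It was at 628 and 833 FPKM with ETV1-sh1 and ETV1-sh2 in Colo800 against 682 with the scrambled hairpin, and at 472 and 621 against 483 in A375. In both lines ETV1-sh2 gave the highest and ETV1-sh1 the lowest value, with a log2 change of 0.33 for ETV1-sh2 (adjusted p = 0.171). WIPI1, a phosphoinositide-binding protein of the early autophagosome, was at 77.4 and 37.5 FPKM against 44.5 in Colo800 and at 21.04 and 23.9 against 11.4 in A375. It did not pass with either hairpin (log2 0.81 and 0.38, SE 0.32, adjusted p = 0.249 and 0.428). Summed over the 9 factors, FPKM came to 1005 for ETV1-sh1 and 1194 for ETV1-sh2 in Colo800, against 937 with the scrambled hairpin, and 880.1 and 1183 against 793 in A375.

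**Figure D2:**
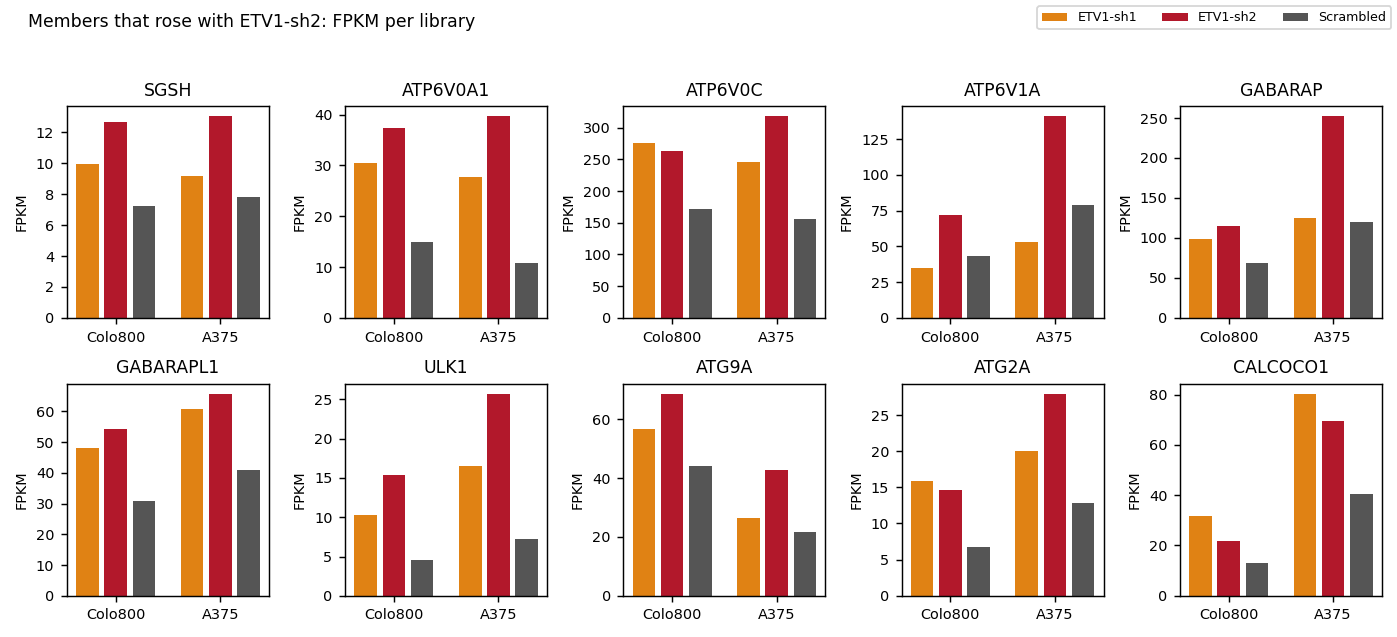
FPKM per library of the 10 members that rose with ETV1-sh2, 1 bar per library (no error bars, since each bar is 1 library), ordered ETV1-sh1, ETV1-sh2, scrambled within Colo800 on the left and A375 on the right of each panel. The ETV1-sh2 bar stands above the scrambled bar of the same line in each panel, while ATP6V1A is below it with ETV1-sh1, at 35.2 against 43.1 FPKM in Colo800 and 52.9 against 79.3 in A375.

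The transcription factors of the system were measured beside them. TFEB, the main activator of lysosomal genes, was low throughout: 5.02 and 4.72 FPKM with ETV1-sh1 and ETV1-sh2 in Colo800 against 2.002 with the scrambled hairpin, and 3.85 and 6.04 against 2.78 in A375. Both scrambled libraries were below the 4 hairpin libraries. The log2 change was 0.92 with ETV1-sh2 (SE 0.25) and missed the threshold narrowly (adjusted p = 0.0523). TFE3, its close relative, was at 23.1 and 21.6 FPKM against 17.9 in Colo800 and at 65.3 and 55.3 against 55.4 in A375, with log2 changes of 0.29 and 0.13 that did not pass. MITF, the relative with the melanocyte role, was at 91.5 and 38.4 FPKM with ETV1-sh1 and ETV1-sh2 in Colo800 against 116 with the scrambled hairpin, and at 8.61 and 10.5 against 12.6 in A375. Its change with ETV1-sh2 was -0.91 (adjusted p = 0.13).

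The proton pump is built from a membrane sector, V0, which carries protons, and a cytosolic sector, V1, which splits ATP. ATP6V0A1, the large membrane subunit, was at 30.4 and 37.3 FPKM with ETV1-sh1 and ETV1-sh2 in Colo800 against 15.02 with the scrambled hairpin, and at 27.7 and 39.6 against 10.8 in A375. All hairpin libraries were above both scrambled libraries, and the log2 changes were 1.13 with ETV1-sh1 (SE 0.19, adjusted p = 0.0455) and 1.52 with ETV1-sh2 (SE 0.19, adjusted p = 0.0106). ATP6V0C, the proteolipid of the rotating ring, was at 276 and 264 FPKM against 172 in Colo800 and at 246 and 318 against 157 in A375. It rose with ETV1-sh2 by 0.81 (adjusted p = 0.0297), and with ETV1-sh1 its change was 0.66 (adjusted p = 0.12).

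The other pump subunits moved less evenly. ATP6V1B2, a nucleotide-binding subunit of V1, was at 153 and 102 FPKM with the hairpins against 157 with scrambled in Colo800, and at 53.2 and 49.1 against 35.4 in A375, below scrambled in the first line and above it in the second. ATP6V1H, a regulatory V1 subunit, was at 47.7 and 51.7 FPKM against 51.5 in Colo800 and at 64.8 and 82.99 against 60.3 in A375. ATP6V1B2 and ATP6V1H did not pass with either hairpin (log2 -0.07 and 0.23 with ETV1-sh2). ATP6V1A and ATP6V0D1 differed between the hairpins and are described with that comparison.

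Among the hydrolases SGSH, which removes sulfate from heparan sulfate, was the member that rose. It was at 9.92 and 12.6 FPKM with ETV1-sh1 and ETV1-sh2 in Colo800 against 7.22 with scrambled, and at 9.15 and 13.03 against 7.797 in A375, in the order ETV1-sh2, ETV1-sh1, scrambled in both lines (ETV1-sh2: log2 0.70, adjusted p = 0.0474). CTSA, a carboxypeptidase that shields other hydrolases, was at 754 and 408 FPKM against 496 in Colo800 and at 366 and 345 against 297 in A375. NEU1, the lysosomal sialidase that CTSA shields, was at 104 and 60.1 FPKM against 66.8 in Colo800 and at 31.5 and 39.8 against 23.1 in A375. Neither CTSA nor NEU1 passed with a hairpin, and for both ETV1-sh1 gave the highest value of Colo800.

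The cathepsins, which cut proteins, did not pass with either hairpin. CTSB was at 327 and 305 FPKM with ETV1-sh1 and ETV1-sh2 against 406 with scrambled in Colo800, and at 179 and 227 against 134 in A375. CTSD was at 636 and 486 against 535 FPKM in Colo800 and at 115 and 205 against 161 in A375. CTSH was at 38.4 and 51.4 FPKM against 40.3 in Colo800 and at 4.52 and 14.8 against 5.84 in A375. CTSH had the widest gap of the cathepsins with ETV1-sh2 (log2 0.78, SE 0.28, adjusted p = 0.108), while CTSD was at 0.10 and CTSB at 0.17. TPP1, a peptidase that trims tripeptides, was at 52.6 and 55.5 FPKM against 51.9 in Colo800 and at 36.4 and 89.1 against 59.1 in A375.

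The glycosidases GLA and GUSB did not pass with either hairpin. GLA, which removes terminal galactose from glycolipids, was at 54.3 and 34.6 FPKM against 42.4 in Colo800 and at 20.02 and 24.2 against 19.6 in A375 (ETV1-sh2: log2 0.003, SE 0.24). GUSB, the beta-glucuronidase, was at 128 and 109.98 FPKM against 94.97 in Colo800 and at 32.9 and 53.96 against 35.1 in A375 (log2 0.41, SE 0.24).

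None of the 5 membrane and cholesterol export genes passed with a hairpin. LAMP1, an abundant glycoprotein of the lysosomal membrane, was at 168 and 168 FPKM with ETV1-sh1 and ETV1-sh2 against 194 with scrambled in Colo800, and at 88.5 and 129 against 132 in A375. LAMP2, which also serves chaperone-mediated autophagy, was at 169.8 and 159 against 211 FPKM in Colo800 and at 36.2 and 50.1 against 40.7 in A375. The log2 changes with ETV1-sh2 were -0.12 and -0.06 (SE 0.18 and 0.21).

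NPC1 and NPC2 hand cholesterol out of the lysosome. NPC1 was at 44.7 and 22.4 FPKM with ETV1-sh1 and ETV1-sh2 against 40.7 in Colo800, and at 27.5 and 16.4 against 14.9 in A375. NPC2 was at 226 and 90.2 FPKM against 142 in Colo800 and at 102 and 79.5 against 85.5 in A375. For both genes ETV1-sh1 was the highest library of each line. MCOLN1, the calcium channel of the lysosomal membrane, was at 19.3 and 12.4 FPKM against 9.56 in Colo800 and at 20.7 and 30.6 against 16.02 in A375. The MCOLN1 log2 changes were 0.65 with ETV1-sh1 (adjusted p = 0.286) and 0.62 with ETV1-sh2 (adjusted p = 0.172).

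**Figure D3:**
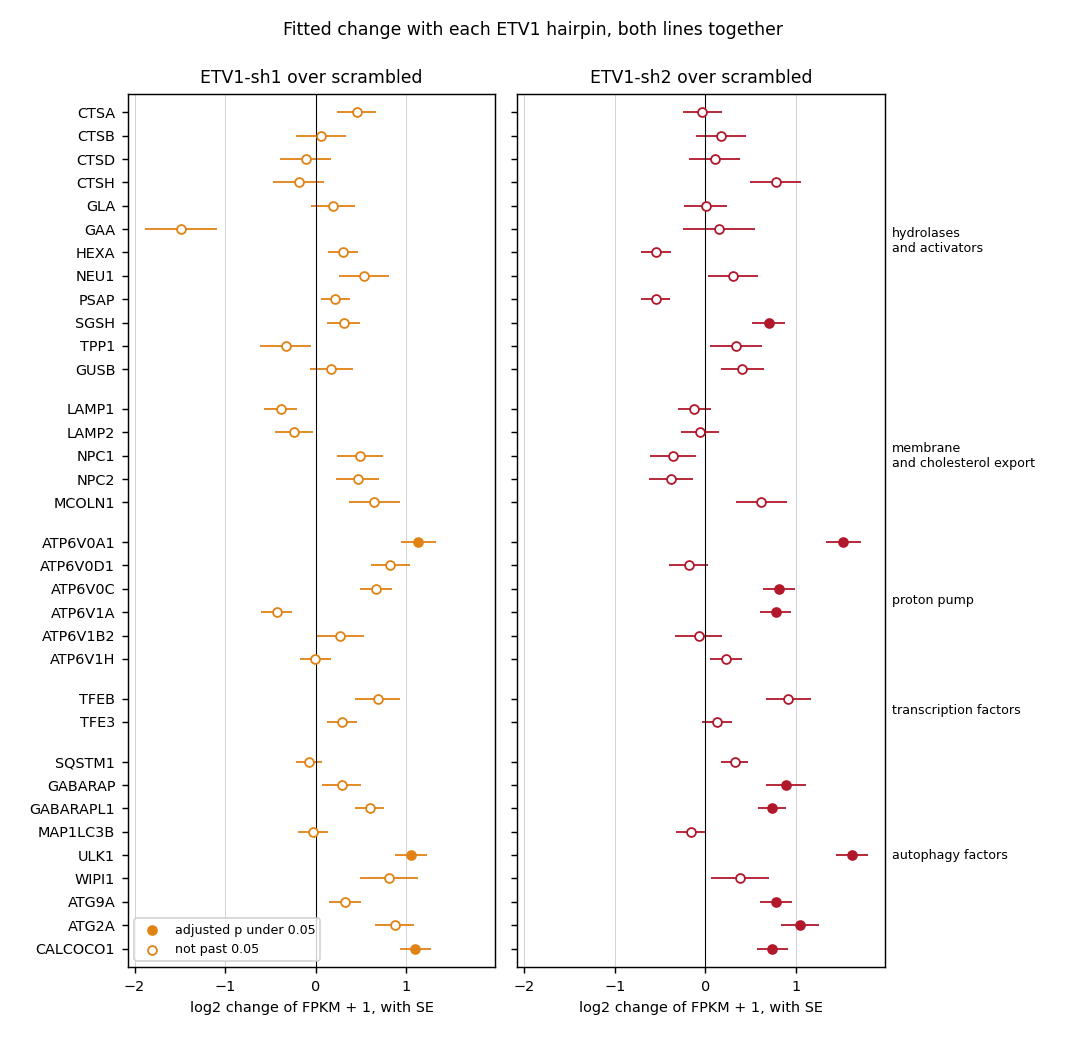
Fitted log2 change of FPKM + 1 over both lines for each member, ETV1-sh1 over scrambled on the left and ETV1-sh2 over scrambled on the right, with bars of 1 SE and filled points where the adjusted p was under 0.05. With ETV1-sh2 6 of 9 autophagy factors, 3 of 6 pump subunits and 1 of 12 hydrolases are filled, the largest being ULK1 at 1.62, and no filled point lies below 0.

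Described per library, the median log2 difference of the 34 members from the scrambled library was 0.38 in the ETV1-sh1 and 0.15 in the ETV1-sh2 library of Colo800, where all genes were at 0.02 and 0.05. In A375 it was 0.24 and 0.59, and all genes were at -0.02 and 0.04. Autophagy factors had medians of 0.63 and 0.71 in Colo800 and 0.56 and 0.95 in A375, while hydrolases had 0.33 and -0.14 in Colo800 and 0.07 and 0.46 in A375. A 2-fold rule for both hairpins of a line was applied on the log2(FPKM + 1) scale. By it ULK1 and ATG2A were counted in Colo800 and ULK1 and ATP6V0A1 in A375. These were 2 of 34 (5.88%) each, against 0.899% and 0.952% of all genes. By FPKM without the added 1, ATP6V0A1 (2.02-fold and 2.49-fold) and TFEB (2.51-fold and 2.36-fold) were also past 2-fold in Colo800. No member was counted on the lower side, against 0.908% of all genes in Colo800 and 1.63% in A375. Markers of fibroblasts moved with ETV1-sh2 as well. Their 6 genes summed to 29.7 and 34.7 FPKM with ETV1-sh2, 10.7 and 15.6 with ETV1-sh1, and 9.78 and 13.1 with the scrambled hairpin, in Colo800 and A375 each time. Of the 3 that passed the filter, COL1A1, PDGFRB and LUM, 3 rose with ETV1-sh2, while COL3A1 was at most 0.106 FPKM in any library and listed at 0 in A375 scrambled. COL1A2 was at 0.178 and 1.32 FPKM with ETV1-sh1 and ETV1-sh2 against 1.78 with scrambled in Colo800, and at most 0.0726 in A375. DCN was at 0.441 FPKM with ETV1-sh2 against 0.113 with scrambled in Colo800, and at 4.08 against 0.423 in A375. Of the 6 melanocyte lineage markers tested S100B alone passed, with a limma log2 change of -1.70 for ETV1-sh1 (adjusted p = 0.0197) and -1.06 for ETV1-sh2 (adjusted p = 0.0194). The list did not move as 1 group. With ETV1-sh1 2 of the 6 changes were positive, TYR at 0.67 and TYRP1 at 0.18, and with ETV1-sh2 1 was, TYRP1 at 0.22. Keratinocyte markers summed to 5.43 to 21.6 FPKM and endothelial markers to 1.33 to 10.4 FPKM over the 6 libraries. The part of these genes in the result was not tested.

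The hairpins, which left different amounts of ETV1, were then set against each other. Of the 34 members 2 were higher with ETV1-sh2 than with ETV1-sh1 (5.88%) and 3 were lower (8.82%), against 6.82% and 6.91% of all genes, so the share was near that of all genes. ATP6V1A, the catalytic subunit of the pump, was at 72.2 FPKM with ETV1-sh2 and 35.2 with ETV1-sh1 in Colo800, on either side of scrambled at 43.1. In A375 it was at 141 and 52.9 FPKM, around 79.3. The log2 difference between the hairpins was 1.21 (SE 0.17, adjusted p = 0.0119), and against scrambled it was 0.78 with ETV1-sh2 (adjusted p = 0.0315) and -0.43 with ETV1-sh1 (adjusted p = 0.247).

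ATP6V0D1, which couples the pump's sectors, went the other way. It was at 23.6 FPKM with ETV1-sh2 and 63.1 with ETV1-sh1 in Colo800 (scrambled 31.2), and at 44.7 and 69.6 in A375 (scrambled 43.97). The difference was -1.004 (SE 0.21, adjusted p = 0.0324), and the ETV1-sh1 library was the highest of each line. GAA, which digests glycogen, was at 17.8 FPKM with ETV1-sh2 and 8.78 with ETV1-sh1 in Colo800 (scrambled 14.2), and at 76.3 and 14.1 in A375 (scrambled 76.04). ETV1-sh1 was the lowest library of each line, and the difference of 1.65 had the widest error of the 5 (SE 0.40, adjusted p = 0.0446).

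HEXA and PSAP both act in the breakdown of sphingolipids, as a hexosaminidase subunit and as the precursor of the saposins. HEXA was at 57.2 FPKM with ETV1-sh2 and 109.8 with ETV1-sh1 in Colo800 (scrambled 78.9), and at 33.5 and 57.4 in A375 (scrambled 52.3). PSAP, the member with the highest mean FPKM, was at 611 FPKM with ETV1-sh2 and 1163 with ETV1-sh1 in Colo800 (scrambled 931), and at 321 and 485 in A375 (scrambled 451). For both, the order in each line was ETV1-sh1, scrambled, ETV1-sh2 from high to low, with differences of -0.84 (adjusted p = 0.0262) and -0.76 (adjusted p = 0.0318). Without either ETV1-sh1 library 0 members passed in either direction. Without the A375 ETV1-sh2 library 1 was higher and 4 were lower, and without the Colo800 ETV1-sh2 library 5 were higher and 1 was lower. Without the A375 scrambled library 2 and 3 passed and without the Colo800 one 2 and 2, while with no filter on low values 0 did.

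**Figure D4:**
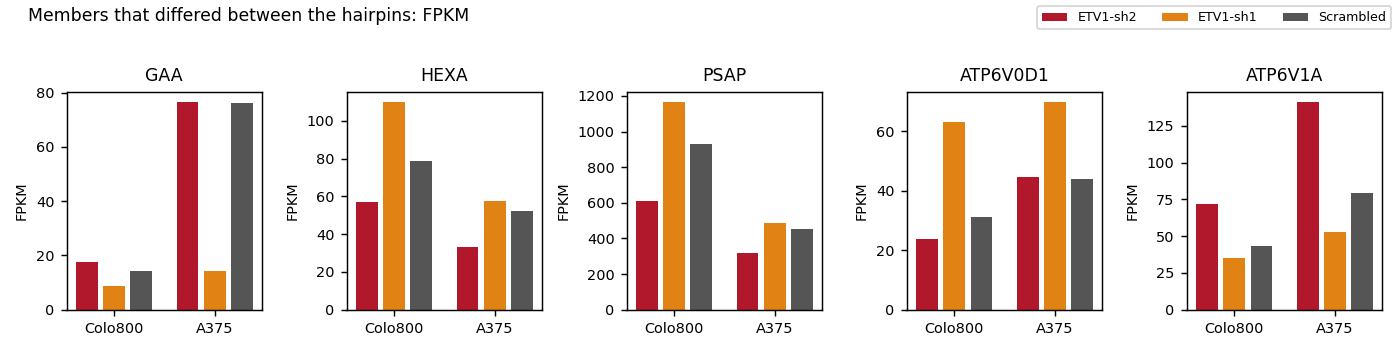
FPKM per library of the 5 members that differed between the hairpins, 1 bar per library (no error bars), ordered ETV1-sh2, ETV1-sh1, scrambled within Colo800 on the left and A375 on the right of each panel. GAA and ATP6V1A are lowest with ETV1-sh1 in both lines, and ATP6V0D1, HEXA and PSAP are highest with it, PSAP at 1163 FPKM in Colo800 and 485 in A375.

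The comparison of Colo800 with A375 asked how the system differs between the lines, over the 3 hairpins. Among the members, hydrolases and membrane proteins were mostly higher in Colo800, and pump subunits and autophagy factors were split. Outside the set this did not hold: 12 of 40 other hydrolases were higher and 10 lower, and 10 of 28 other membrane and sorting genes higher and 10 lower. Of the 34 members 17 were higher in Colo800 (50%) and 11 lower (32.4%) in limma, against 31.8% and 25.3% of all genes. By role, 9 of 12 hydrolases were higher and 1 lower, 4 of 5 membrane genes higher and 1 lower, 1 of 6 pump subunits higher and 3 lower, 0 of 2 transcription factors higher and 1 lower, and 3 of 9 autophagy factors higher and 5 lower. The 3 libraries of a line did not overlap those of the other for 14 members higher in Colo800 (41.2%) and 5 lower (14.7%), against 26.2% and 21.6% of all genes. The counts were 11 higher and 6 lower without either scrambled library and 9 and 6 with no filter on low values. Without either ETV1-sh2 library they were 16 and 7, and without either ETV1-sh1 library 12 and 9.

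The widest gaps on the higher side were in CTSH, LAMP2 and CTSD. CTSH, an aminopeptidase, averaged 43.4 ± 7.02 FPKM in Colo800 and 8.39 ± 5.61 in A375 (SD over the 3 hairpin libraries of a line, n = 3, here and below), with a log2 difference of 2.39 (SE 0.23, limma adjusted p = 0.000523). LAMP2 averaged 180.2 ± 27.6 FPKM in Colo800 and 42.3 ± 7.09 in A375 (log2 2.07, limma adjusted p = 0.000323). CTSD, the main aspartic protease, averaged 552 ± 76.5 FPKM in Colo800 and 160.3 ± 44.6 in A375 (log2 1.81, limma adjusted p = 0.00127). In each of these 3 genes the lowest Colo800 library was above the highest A375 library.

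The other members higher in Colo800 differed less. Their log2 differences were 1.56 for ATP6V1B2, 1.45 for GUSB, 1.45 for WIPI1, 1.25 for NEU1, 1.08 for PSAP, 0.99 for GLA, 0.96 for CTSB and 0.91 for ATG9A. They were 0.83 for NPC1, 0.75 for HEXA, 0.68 for NPC2, 0.67 for CTSA, 0.61 for LAMP1 and 0.44 for SQSTM1, with adjusted p in limma up to 0.0257 (NPC2). The libraries of the lines overlapped for NPC1, HEXA and NPC2. WIPI1 averaged 53.1 ± 21.3 FPKM in Colo800 and 18.8 ± 6.56 in A375.

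On the lower side GAA averaged 13.6 ± 4.53 FPKM in Colo800 and 55.5 ± 35.8 in A375, where 1 library, ETV1-sh1 at 14.1, was inside the range of Colo800 (log2 -1.67, SE 0.32, limma adjusted p = 0.00596). CALCOCO1 averaged 22.1 ± 9.38 FPKM in Colo800 and 63.5 ± 20.5 in A375 (log2 -1.51, limma adjusted p = 0.00043). TFE3 averaged 20.9 ± 2.68 FPKM in Colo800 and 58.7 ± 5.75 in A375 (log2 -1.45, limma adjusted p = 0.000442). CALCOCO1 and TFE3 did not overlap between the lines.

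The other members lower in Colo800 had log2 differences of -0.80 for ATP6V1A, -0.75 for GABARAP, -0.68 for ATG2A, -0.67 for MCOLN1, -0.63 for ULK1, -0.53 for MAP1LC3B, -0.50 for ATP6V0D1 and -0.44 for ATP6V1H. Their limma adjusted p ran from 0.00401 (ATP6V1A) to 0.0473 (ATP6V0D1). Of these GABARAP, MAP1LC3B and ATP6V1H did not overlap between the lines. The 6 members that did not pass were SGSH, TPP1, ATP6V0A1, ATP6V0C, TFEB and GABARAPL1, with log2 differences from -0.33 (GABARAPL1) to 0.16 (ATP6V0A1). MITF averaged 82.1 ± 39.9 FPKM in Colo800 and 10.5 ± 1.97 in A375 (log2 2.72, limma adjusted p = 0.000747), the opposite order to TFE3. Melanocyte lineage markers, 6 of 6 tested, were higher in Colo800 and summed to 846 to 1297 FPKM there and 402 to 688 in A375. TYR, DCT and TYRP1 met the filter through Colo800 alone, with A375 means of 0.0407, 0.0497 and 0.464 FPKM. Their direction thus followed from the filter and adds no support. SOX10, MITF and S100B were the others tested, and MLANA did not pass the filter. Leukocyte markers summed to 36.1 to 54.5 FPKM in Colo800 and 1.23 to 2.42 in A375, nearly all of it LCP1, while PTPRC was at most 0.121 FPKM in any library. Their part in the line differences was not tested.

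**Figure D5:**
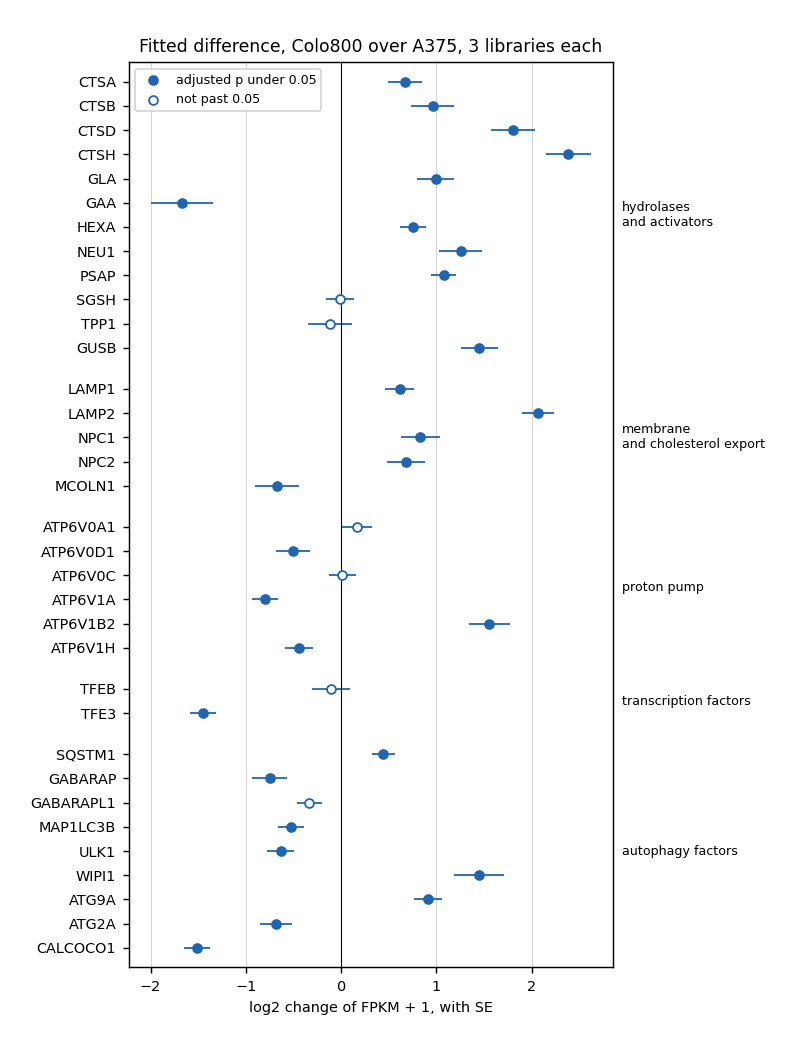
Fitted log2 difference of FPKM + 1, Colo800 over A375, for each member, from 3 libraries per line, with bars of 1 SE and filled points where the adjusted p was under 0.05. Hydrolases and membrane genes lie mostly right of 0, with CTSH at 2.39 and LAMP2 at 2.07, and GAA, TFE3 and CALCOCO1 lie farthest left, at -1.67, -1.45 and -1.51.

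Whether the ETV1 hairpin effect itself differed between the lines was tested in a model giving each line its own knockdown effect. By limma 0 of 34 members passed, 0 at an unadjusted p under 0.05 (0% of all genes passed in either direction). Over all genes 66 of 11129 were under that unadjusted p. The median SE of the members in that fit was 0.593, and no member differed by as much as 3 times its own SE. ULK1 differed by -0.12 (SE 0.66) and ATP6V0A1 by -0.42 (SE 0.56), Colo800 minus A375 on the log2 scale.

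The rest of the pathway was followed through 155 other genes in 5 lists, of which 144 were in the table and 139 passed the filter. With ETV1-sh2 8 of 40 other lysosomal hydrolases rose and 1 fell (median log2 change 0.41), 7 of 28 other membrane and sorting genes rose and 1 fell (0.25), and 7 of 38 other autophagy genes rose and 2 fell (0.39). Among 15 other pump subunits 1 rose and 1 fell (0.12), and among 18 genes of nutrient signalling at the lysosome 1 rose and 0 fell (0.10). Over all genes tested 7.73% rose and 9% fell, and the median was 0.05. With ETV1-sh1 0 of the 139 genes rose and 2 fell, against 0.773% and 1.51% of all genes, so the share that fell was near that of all genes. The 2 that fell were BECN1, the scaffold of the autophagy lipid kinase, at -1.15, and the pump subunit ATP6V1C1 at -1.31. Both are named after their values were seen. BECN1 was at 19.1 FPKM for ETV1-sh1 and 47.2 for ETV1-sh2 in Colo800 against 43.5 with scrambled, and at 29.6 and 77.7 against 67.2 in A375, so that ETV1-sh1 stood apart in both lines.

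By name, the hydrolases that rose with ETV1-sh2 included PLA2G15, a phospholipase (1.48), SMPD1, the acid sphingomyelinase (1.71), and LIPA, the acid lipase (1.14). SMPD1 was at 55.9 and 61.2 FPKM with ETV1-sh1 and ETV1-sh2 against 24.4 with scrambled in Colo800, and at 34.3 and 75.9 against 16.7 in A375. The protease CTSC fell (-1.79), with 78.1 FPKM with ETV1-sh2 against 186 in Colo800 and 68.3 against 349 in A375. Membrane genes that rose were the transporters SLC17A5 (1.30), SLC38A9 (1.03) and SLC36A1 (1.55), and OSTM1, the partner of the chloride transporter CLCN7, fell (-1.12). Of the autophagy genes the fusion protein VAMP8 (1.24), ATG10 (1.26) and ATG4D (1.25) rose, while UVRAG (-1.45) and ATG5 (-1.17) fell. These limma adjusted p-values ran from 0.0143 (VAMP8) to 0.0235 (LIPA).

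In the other lists the pump subunit ATP6V0E2 (1.44) and the Rag GTPase RRAGB (1.26) rose with ETV1-sh2. ATP6V1D, a subunit of the pump's central shaft, fell (-2.02, SE 0.18, adjusted p = 0.00806). ATP6V1D was at 27.8 FPKM for ETV1-sh1 and 3.36 for ETV1-sh2 in Colo800 against 18.1 with scrambled, and at 30.2 and 4.72 against 20.5 in A375. The ETV1-sh2 libraries of both lines were below the other 4.

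Between the lines the same lists had calls in both directions, apart from the pump. Of the 40 other hydrolases 12 were higher in Colo800 and 10 lower, of the 28 membrane and sorting genes 10 and 10, of the 15 pump subunits 3 and 0, of the 38 autophagy genes 9 and 11, and of the 18 nutrient signalling genes 7 and 6. Over all genes 31.8% were higher and 25.3% lower. MAP1LC3A, a relative of MAP1LC3B, was the farthest apart: 0.0593 FPKM with ETV1-sh1, listed at 0 with ETV1-sh2 and 0.0229 with scrambled in Colo800, against 23.9, 70.5 and 31.8 FPKM in A375 (log2 difference -5.24). Among hydrolases IDUA (-3.10), MAN2B1 (-2.26) and GALC (-2.85) were lower and CTBS (1.40) and GGH (2.01) higher in Colo800. GALC, which digests galactosylceramide, was at 0.149, 0.113 and 0.01798 FPKM with ETV1-sh1, ETV1-sh2 and scrambled in Colo800, against 5.56, 11.8 and 4.85 in A375. MAP1LC3A and GALC met the filter on low values through A375 alone, with Colo800 means of 0.0274 and 0.0935 FPKM. Their direction thus followed from the filter, and their values are given as a description.

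Of the membrane genes SORT1 (1.05), OSTM1 (0.997) and SCARB2 (1.18) were higher in Colo800, and TMEM175 (-1.59), SIDT2 (-1.80) and SLC38A9 (-0.97) lower. Autophagy genes higher in Colo800 were RUBCN (1.44), SNAP29 (1.28) and TAX1BP1 (1.17), and WDR45 (-1.63) and VAMP8 (-1.55) were lower beside MAP1LC3A. The pump subunits ATP6V1E1 (1.20), ATP6V0E2 (0.67) and ATP6V0B (0.70) were higher. In nutrient signalling RHEB (1.42) and DEPDC5 (1.72) were higher beside MITF, and SESN1 (-2.29), TSC2 (-1.48) and RRAGA (-1.17) lower. Their limma adjusted p-values reached at most 0.0393 (ATP6V0B).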

How the data were processed

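The authors deposited FPKM values, and the submitters' processing notes name STAR 2.4, Cufflinks 2.2.1, Cuffnorm and the build hg19. No source used here gives the annotation, scaling method, filters or strandedness, so overlapping, antisense and near-identical genes may share reads. The table holds 1 column for each of 6 libraries. Tests used limma 3.58.1 in R 4.3.3 (moderated variances that follow the mean level) on log2(FPKM + 1). The 11129 genes whose FPKM averaged 1 or more were tested, with Benjamini-Hochberg adjustment over all of them and a threshold of 0.05. Fold changes on this scale understate those of low genes. Both hairpins against scrambled had the cell line as a block (3 residual degrees of freedom). Each hairpin and the lines were compared in a model of line plus hairpin (3 levels), and the difference between lines in a model giving each line its own knockdown effect. Both left 2 residual degrees of freedom. FPKM carries no absolute depth, and the relative depth is the commonest ratio among low values. The fit was tested on simulated data. The members, gene lists, tests and the rule for naming genes (every member; up to 3 genes per list and direction by p among those past the threshold, some of which are not reported here) were chosen with earlier results of these data known, and the ETS motif was added after the data were seen. All 34 members carry the symbol that the reference names pair with their Ensembl identifier, and 1 listed gene was found by identifier under another symbol. Markers of melanocytes, fibroblasts, leukocytes, keratinocytes and endothelial cells were read beside the members. Alternatives changed the pseudocount, the filter, the variance trend, the scaling and the libraries.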

Additional observations from a re-analysis of the deposited data

Results flagged for a closer look

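In CTSB and ATP6V1B2 both hairpins lay on opposite sides of scrambled in the 2 lines: below it in Colo800 and above it in A375. The fitted difference of the hairpin effect, Colo800 minus A375, was -0.94 on the log2 scale for CTSB and -0.84 for ATP6V1B2. The limma test of that difference did not pass for either (adjusted p = 1.00 over all genes), and 0 members passed at an unadjusted p under 0.05.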

How the results depend on the processing

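The 46 calls of single members were each read under 13 alternatives, 598 pairs of a call and an alternative. All pairs kept the direction of the call, 429 of them past the threshold and 169 not. The pairs reuse the same 6 libraries in which the calls were made, so they are not independent. Leaving out 1 library, which leaves a hairpin with 1 library assumed to vary like the others, gave 0 to 7 members higher and 0 to 1 lower for ETV1-sh1 against scrambled, 0 to 12 higher and 0 lower for ETV1-sh2 against scrambled, 0 to 5 higher and 0 to 4 lower for ETV1-sh2 against ETV1-sh1, and 11 to 16 higher and 6 to 9 lower for Colo800 against A375. With no filter on low values 0 members passed for either hairpin, against 3 and 10, and 0 between the hairpins, against 2 higher and 3 lower. For the lines that setting gave 9 higher and 6 lower, against 17 and 11. For ETV1-sh1 against scrambled log2(FPKM + 5) and no variance trend gave 0 higher and quantile normalization 1, and for ETV1-sh2 against ETV1-sh1 the first 2 of these gave 1 higher. Members past the fold rule with both hairpins in Colo800 numbered 4 at log2(FPKM + 0.1) and 7 at 1.5-fold, against 2, and in A375 6 at 1.5-fold, against 2. In Colo800 ATP6V0A1 and TFEB were past 2-fold by FPKM with both hairpins. At log2(FPKM + 1) ATP6V0A1 was at 0.970 with ETV1-sh1 and TFEB at 0.931 with ETV1-sh2, both under the rule. Why the counts of the tests moved with the settings was not tested. Both hairpins together gave 0 members under every alternative run, including with no replicate block, where 0 were higher and 0 lower. The difference between lines could not be fitted without a scrambled library. The labels carry no replicate numbers, so libraries could be matched by cell line only, which served as the block. Absolute depth is unknown, so no counting error could be given.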
